A study of Mus musculus with 12 samples.

Results

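The heart muscle of young mice was compared here with the other cells of the same organ, as 2 fractions of cells whose RNA was sequenced separately. Members of the comparison were the genes whose FPKM averaged 1 or more across the 6 libraries of the young animals, as was the case for 14939 of the 38282 genes in the table. FPKM stands for fragments mapped to a gene, divided by the length of its transcripts and the size of the library, so it is relative to the length of a gene and to the reads of its library. The last gene inside the limit had a mean of 1.0009 FPKM and the first outside it 0.99988 FPKM. All mice were males of 8 weeks on normal chow, and no treatment or genetic change is named for them. Hearts were digested by perfusion through the aorta (the Langendorff method), and cardiomyocytes were parted from the rest by density centrifugation, so no surface marker or sort defined either fraction. Each fraction was sequenced as polyadenylated RNA in 3 libraries, and the study holds 6 more libraries made in the same way from males of 18 months. The series names 3 hearts at each age but does not tie a library to a heart, so p-values measure the spread between these libraries only.

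A ventricular cardiomyocyte is built around the sarcomere, in which myosin thick filaments slide along actin thin filaments anchored at the Z disc. Each beat starts when calcium enters through channels of the cell membrane and releases more calcium from the sarcoplasmic reticulum, and the work is paid for mainly by fatty acid oxidation in densely packed mitochondria. Most of the other cells of the heart are endothelial cells, fibroblasts, mural cells (pericytes and smooth muscle) and macrophages, which make up the vessels, the matrix and the resident immune compartment. Cardiomyocytes are large and the other cells small, and in bulk RNA fewer cells of a type and less RNA per cell cannot be told apart.

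The 4 marker genes chosen for the fractions followed the labels, and both fractions also held RNA of the other. Tnnt2, the troponin T of the cardiac thin filament, measured 10569, 12108 and 9377 FPKM in cardiomyocytes and 928, 876 and 542 FPKM in non-cardiomyocytes, in the order of the libraries numbered 0, 1 and 2. Pecam1, an adhesion molecule of endothelial cells, measured 101, 129 and 128 FPKM in cardiomyocytes and 249.9, 295 and 307 FPKM in non-cardiomyocytes. Col1a1, a chain of type I collagen made by fibroblasts, measured 52.8, 25.8 and 44.8 FPKM in cardiomyocytes and 162, 115 and 127 FPKM in non-cardiomyocytes. In each of these genes the 3 libraries of one fraction lay apart from the 3 of the other. Csf1r, the receptor through which macrophages receive their survival signal, measured 29.1, 18.4 and 29.1 FPKM in cardiomyocytes and 98.5, 85.9 and 109 FPKM in non-cardiomyocytes, again without overlap. On the log2(FPKM + 0.1) scale the difference of cardiomyocytes minus non-cardiomyocytes was 3.80 ± 0.28 (SE) for Tnnt2, -1.25 ± 0.14 (SE) for Pecam1, -1.76 ± 0.29 (SE) for Col1a1 and -1.96 ± 0.21 (SE) for Csf1r. On the values as deposited the cardiomyocyte marker was thus separated more strongly than the markers of the other cells, as the plot of marker levels by library shows. The size of this asymmetry depends on the scale. With quantile normalization wider marker lists had medians of 2.53 for cardiomyocytes, -1.78 for endothelial cells, -2.26 for fibroblasts and -2.12 for macrophages. As deposited these medians were 3.83, -1.27, -1.77 and -1.84.

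**Figure D1:**
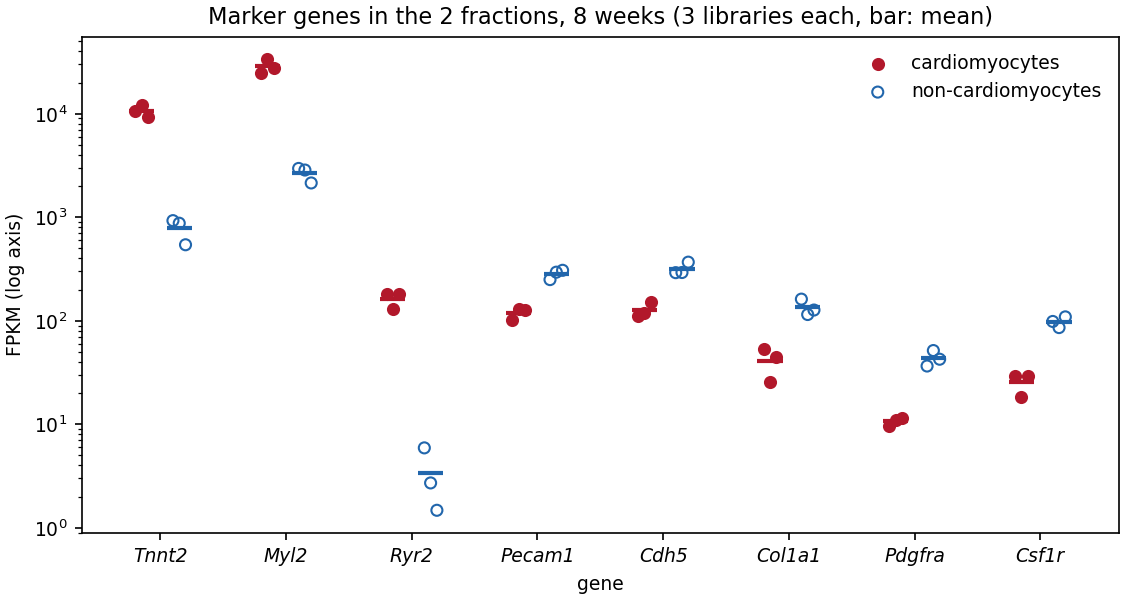
FPKM (log axis) of 8 marker genes in each of the 6 libraries of 8-week-old mice, with filled circles for cardiomyocytes, open circles for non-cardiomyocytes and a bar at each mean of 3. The muscle genes Tnnt2, Myl2 and Ryr2 lie far apart between the fractions, whereas the endothelial, fibroblast and macrophage genes lie lower in cardiomyocytes but never near 0.

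The libraries numbered 0 stood apart from those numbered 1 and 2 in both fractions. Nppa, the atrial natriuretic peptide, measured 6403, 648 and 308 FPKM in cardiomyocytes and 919.7, 72.7 and 25.5 FPKM in non-cardiomyocytes. Cfd, a serine protease secreted by fat cells, measured 330.2, 0.504 and 0.0845 FPKM in cardiomyocytes and 16.9, 0.323 and 0.0694 FPKM in non-cardiomyocytes. Upk3b, a membrane protein of the mesothelium that covers the heart, measured 34.6, 1.81 and 4 FPKM in cardiomyocytes and 39.1, 3.14 and 5.72 FPKM in non-cardiomyocytes. These genes of atrium, fat and surface were thus high in the same pair of libraries, one from each fraction. Not every gene of the atrial and surface lists followed, and Nr2f2 and Tbx18 were not highest in that pair. Bmp10, a growth factor of the atrium, was at 169.9, 0 and 0 FPKM in cardiomyocytes and 23.8, 0 and 0 FPKM in non-cardiomyocytes, so that it was listed at 0 in every library but those numbered 0. The hemoglobin gene Hbb-bs, listed as Hbb-b1, followed them at 533, 134 and 102 FPKM in cardiomyocytes and 2971, 679 and 597 FPKM in non-cardiomyocytes. In all, 86 members (50 of them protein-coding) were above 0 in library 0 of each fraction and at least 4 times as high there as in both other libraries of the fraction. The same count was 14 (5 protein-coding) for the libraries numbered 1 and 22 (0 protein-coding) for those numbered 2. Many of the 86 that were not protein-coding were immunoglobulin genes, Igkc among them. The protein-coding genes of number 1 were Zbtb16, Fkbp5, Fam107a, Hamp2 and Hif3a, named after their values were seen, and Zbtb16 and Fkbp5 are textbook targets of glucocorticoids. Fkbp5 measured 8.85, 55.3 and 6.75 FPKM in cardiomyocytes and 22.8, 130.1 and 16.3 FPKM in non-cardiomyocytes, and Zbtb16 measured 7.18, 65.4 and 7.35 FPKM in cardiomyocytes and 4.13, 73.4 and 2.23 FPKM in non-cardiomyocytes. Whether an equal number marks the same heart is not stated, and what set these libraries apart was not tested. Atrial and fat markers were therefore described by library only, and the main counts are also given without both libraries numbered 0.

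**Figure D2:**
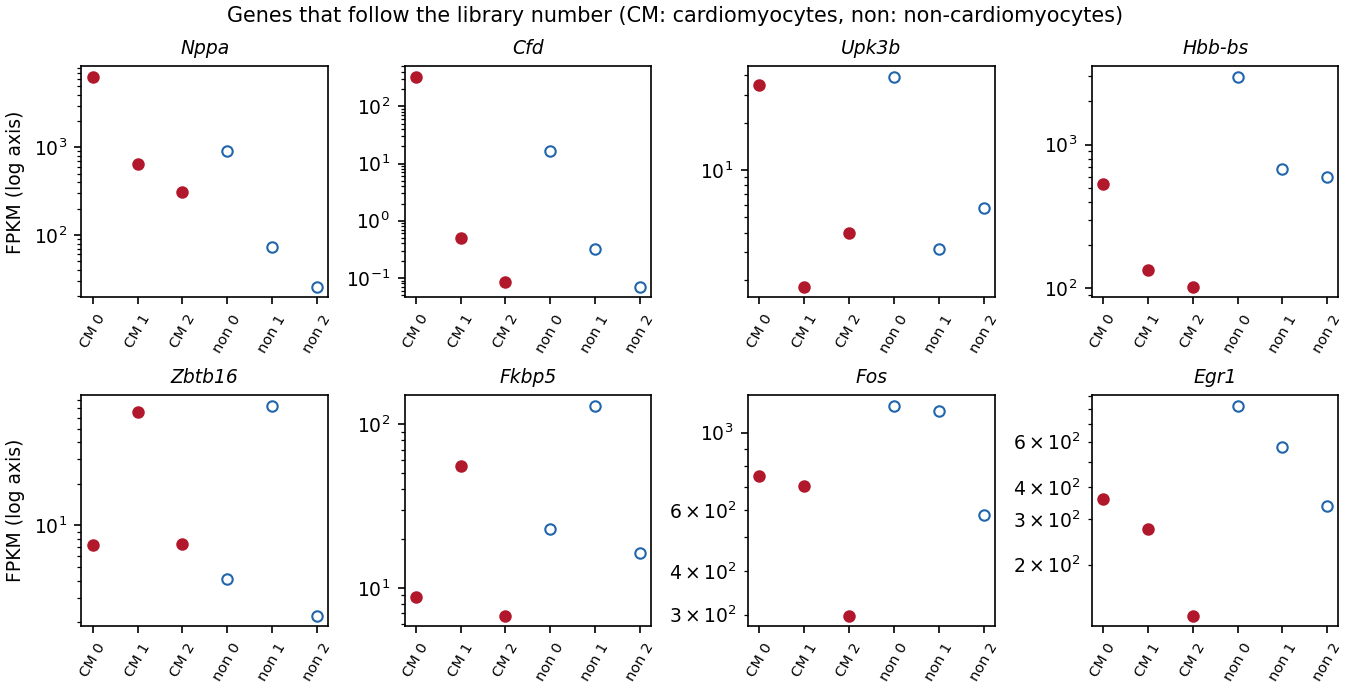
FPKM (log axis) of 8 genes across the 6 libraries, in the order cardiomyocytes 0, 1, 2 and non-cardiomyocytes 0, 1, 2. Nppa, Cfd, Upk3b and Hbb-bs peak in the libraries numbered 0 of both fractions, Zbtb16 and Fkbp5 in those numbered 1, and Fos and Egr1 are lowest in those numbered 2.

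Values were used on the deposited scale, without further scaling between libraries. The FPKM summed to 913263, 949155 and 868963 in cardiomyocytes and to 574861, 556743 and 497581 in non-cardiomyocytes, and between 13.9% and 21.0% of a sum lay in its 10 highest genes. The libraries held between 19857 and 21679 genes above 0. Their absolute depth is unknown, and relative to the deepest of them it was 0.621, 0.413 and 0.411 in cardiomyocytes and 0.674, 0.430 and 1 in non-cardiomyocytes. The Spearman correlation across members was 0.909 to 0.918 within a fraction and 0.736 to 0.773 between the fractions, and genes are not independent replicates.

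The fractions differed in a large part of the transcriptome. Of the 14939 members, 4524 (30.3%) were higher and 4216 (28.2%) lower in cardiomyocytes in limma with Benjamini-Hochberg adjustment at a threshold of 0.05. Over all 19715 genes tested, 25.4% were higher, 23.3% lower and 48.7% either, against 58.5% of members in either direction. Among the members called, 25 stood at 0 in the 3 libraries of a fraction (5 of them higher and 20 lower in cardiomyocytes), which is no measure of absence in this table. Without overlap between 3 and 3 libraries, 5102 members (34.2%) were higher and 5052 (33.8%) lower, against 29.7% and 30.1% of all genes tested. An exact permutation test of 3 against 3 libraries cannot go below 0.1 for a single gene. On the deposited scale the numbers of genes were alike in the 2 directions but the sizes were not. With these 25 left out, since their sizes rest on the pseudocount, members higher by at least 2 on the log2 scale and past the threshold numbered 1408, and those lower by as much numbered 90. At a difference of at least 3 there were 650 higher and 13 lower. With the FPKM scaled to the same sum in every library, the calls were 2434 higher and 8248 lower. The median of all genes tested then moved from -0.13 to -0.81, so a difference smaller than about this shift depends on the scale. The counts at 2 and 3 depend on it as well and are given for the deposited scale only. The median of 19 endothelial markers, for example, went from -1.27 to -2.02. Without both libraries numbered 0 the calls were 3442 higher and 2479 lower.

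**Figure D3:**
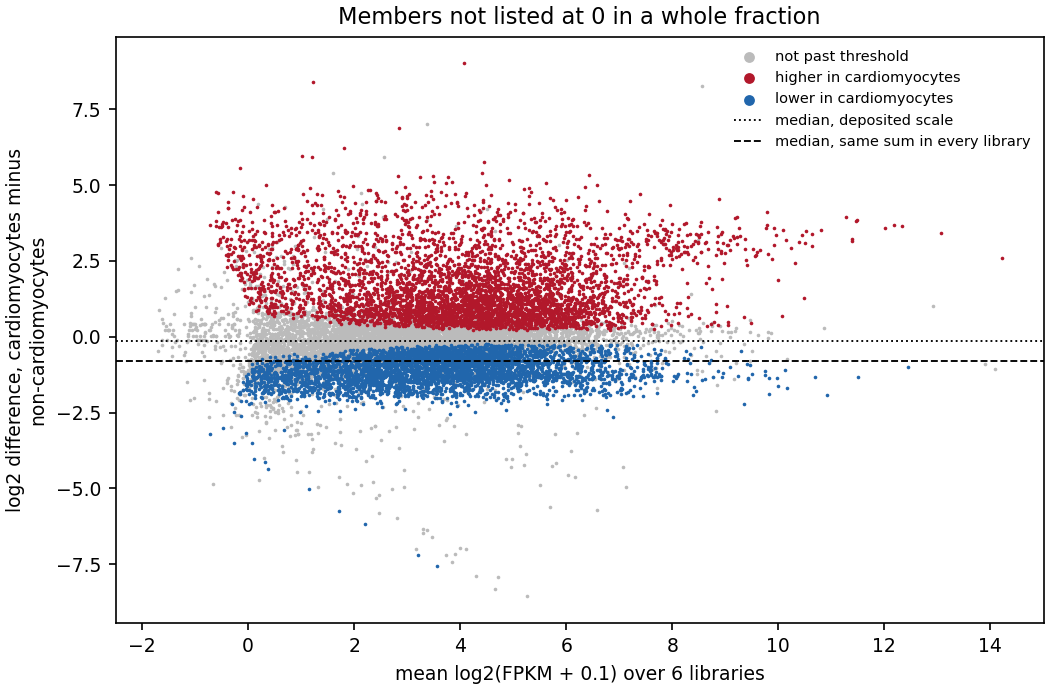
Mean of log2(FPKM + 0.1) over the 6 libraries against the log2 difference (cardiomyocytes minus non-cardiomyocytes) for each member not listed at 0 in a whole fraction, coloured where a call was made. On the deposited scale, which is plotted, coloured points above 2 far outnumber those below -2 (1408 against 90). The horizontal lines mark the median of all genes tested on the deposited scale (-0.13) and with the same sum in every library (-0.81).

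The genes of the contractile apparatus were higher in cardiomyocytes as nearly complete lists. Of 11 members of the thick filament and M band list 10 were higher, the other (Myh6) being listed at 0 in cardiomyocytes, and all 11 of the thin filament list and all 15 of the Z disc list were higher. The lists had median log2 differences of 4.42, 3.80 and 3.93 against -0.13 over all genes tested. The ventricular regulatory light chain Myl2 was the most abundant protein-coding gene of the fraction, at 24778, 33586 and 27670 FPKM in cardiomyocytes and 2964, 2859 and 2145 FPKM in non-cardiomyocytes. Tnni3, the cardiac troponin I that holds back contraction when calcium is low, measured 16454, 19556 and 14432 FPKM in cardiomyocytes and 1673, 1386 and 968 FPKM in non-cardiomyocytes. Ttn, the giant spring that links the Z disc to the M band, measured 74.5, 86.7 and 92.5 FPKM in cardiomyocytes and 3.33, 2.75 and 1.44 FPKM in non-cardiomyocytes. In none of the 3 did the fractions overlap, and the log2 differences were 3.44 ± 0.32 (SE), 3.67 ± 0.30 (SE) and 5.09 ± 0.30 (SE). Without both libraries numbered 0, in a fit of 2 against 2 libraries, Myl2 was at 3.62 and not past the threshold. Actn2, the actin crosslinker of the Z disc, differed by 4.47, Des, the muscle intermediate filament, by 3.84, and Cryab, its small heat shock protein, by 3.38. Tnni1, the slow skeletal and fetal troponin I, was the least abundant of the thin filament list, at 3.48, 2.41 and 1.29 FPKM in cardiomyocytes, and still differed by 2.67 ± 0.57 (SE). Across 36 such sarcomeric genes the level in non-cardiomyocytes was 2.96% to 14.2% of that in cardiomyocytes (median 6.75%). It differed by library, with medians of 8.11%, 6.89% and 4.71% in the non-cardiomyocyte libraries 0, 1 and 2, and 29 of the 36 genes had library 0 highest and library 2 lowest. These percentages depend on the scale. With the same sum in every library the medians of the thick filament, thin filament and Z disc lists were 3.67, 3.06 and 3.18.

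Short stretches of promoter show binding motifs known from muscle and myeloid genes. The motifs were searched on both strands in the 250 bases before the start of 18236 genes with a RefSeq promoter (GRCm38.p6), of which 10052 were members. Each line below gives a window of 20 bases on each side of the motif where the start site allows it, 5′ to 3′ on the strand of the gene, with the motif in capitals. The genes were chosen as examples after their values were seen.
Casq2, MEF2 site, chr3:102086326-102086375, plus strand: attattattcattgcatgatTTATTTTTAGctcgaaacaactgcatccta
Mybpc3, MEF2 site, chr2:91118034-91118083, plus strand: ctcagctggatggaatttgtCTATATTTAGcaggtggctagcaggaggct
Actc1, CArG box, chr2:114052893-114052942, minus strand: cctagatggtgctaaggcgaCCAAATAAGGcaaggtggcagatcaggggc
Myl3, CArG box, chr9:110763573-110763622, plus strand: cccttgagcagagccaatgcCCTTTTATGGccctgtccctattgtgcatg
Tnnt2, M-CAT, chr1:135836287-135836333, plus strand: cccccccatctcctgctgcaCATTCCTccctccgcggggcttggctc
Tpm1, M-CAT, chr9:67049244-67049290, minus strand: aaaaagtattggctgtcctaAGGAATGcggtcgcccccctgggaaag
Atp5g3, ERR element, chr2:73911350-73911398, minus strand: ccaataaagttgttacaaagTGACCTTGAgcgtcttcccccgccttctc
C1qc, PU.1 site, chr4:136893082-136893129, minus strand: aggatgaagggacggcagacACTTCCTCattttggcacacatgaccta
The MEF2 site, to which the MEF2 factors of muscle bind, was present in 9.28% of the 442 promoters of members higher by at least 3 and in 1.54% of the 519 promoters of members lower by at least 1.5, against 2.71% of all promoters. The CArG box, bound by serum response factor, was present in 3.17% and 0.771%, against 1.37% of all. The third motif in the lines above is the muscle element bound by TEAD factors, and its letters, CATTCCT, were present in 5.88% and 3.47%, against 4.08%. The PU.1 site (GAGGAAGT), bound by the master factor of myeloid cells, had the opposite order, with 0.679% and 4.24%, against 2.31%. The ERR element (TCAAGGTCA), bound by estrogen-related receptors, was rare at 0.905% and 0.578%, against 0.296%. The ETS site (CCGGAAGT), which shares its last 6 letters with the PU.1 site, was present in 1.81% and 1.16%, against 3.89%. These limits of size were chosen with the values known. Over all members called, the MEF2 site was present in 2.58% of the 3212 promoters of higher members and 1.33% of the 3092 of lower members (1.83% of all member promoters), and the CArG box in 1.37% and 0.841% (1.19%). The letters CATTCCT were present in 3.92% and 3.27% (3.60%), the PU.1 site in 1.74% and 2.75% (2.42%), and the ERR element in 0.311% and 0.323% (0.259%). The ETS site was present in 6.54% and 4.08% (5.85%), above its share of all promoters. A match of letters is a description of the window and not a measured site.

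Calcium handling and electrical genes followed the sarcomere. Of the 15 members of the calcium handling list 12 were higher, and of the 19 ion channels 16, with medians of 3.42 and 3.75. Ryr2, the calcium release channel of the sarcoplasmic reticulum, measured 180.0, 129 and 181 FPKM in cardiomyocytes and 5.91, 2.71 and 1.48 FPKM in non-cardiomyocytes, and its difference of 5.76 ± 0.48 (SE) was the largest of the protein-coding members named by rule (adjusted p = 0.000208, limma with Benjamini-Hochberg adjustment). Hrc, a calcium-binding protein of the reticulum, measured 574, 512 and 563 FPKM in cardiomyocytes and 21.3, 13.3 and 8.66 FPKM in non-cardiomyocytes. Pln, the brake on the calcium pump, measured 3309, 4003 and 3846 FPKM in cardiomyocytes and 350.3, 360.1 and 262 FPKM in non-cardiomyocytes. None of these overlapped between the fractions. Kcnj11, a subunit of the ATP-sensitive potassium channel, differed by 4.78 ± 0.27 (SE), and Kcnip2, a subunit of the transient outward current, by 3.85 ± 0.16 (SE). One member of each list went the other way: Fkbp1b, a partner of the calcium release channel, at -1.33 ± 0.31 (SE) and the potassium channel gene Kcna5 at -1.20 ± 0.34 (SE), with 18.2, 34 and 19.4 FPKM in cardiomyocytes and 44.7, 79.1 and 41.6 FPKM in non-cardiomyocytes. Sln, an atrial inhibitor of the calcium pump, was not past the threshold and peaked in the libraries numbered 0, at 868, 114 and 38.7 FPKM in cardiomyocytes and 158, 22.2 and 5.3 FPKM in non-cardiomyocytes. The pump itself, Atp2a2, was listed at 0 in all cardiomyocyte libraries and at 232, 159.7 and 102 FPKM in non-cardiomyocytes, and so was Myh6, the main myosin heavy chain of the adult mouse heart, with 226, 110.1 and 71 FPKM. Since every working cardiomyocyte uses both genes, a 0 here is a listing only, and no fold was given.

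At the intercalated disc, which joins cardiomyocytes end to end, 9 of 12 members were higher and 1 lower (median 4.08), and 9 and 3 with the same sum in every library. The desmosomal genes Dsp, Pkp2, Dsg2 and Dsc2 differed by 4.86, 4.42, 4.38 and 4.96. Gja1, the connexin of the gap junction, measured 225, 169 and 264 FPKM in cardiomyocytes and 60.0, 57.9 and 63.2 FPKM in non-cardiomyocytes, a smaller difference of 1.84 ± 0.17 (SE). Tjp1, a scaffold of tight and adherens junctions that endothelial cells also use, was lower at -0.75 ± 0.16 (SE). Jup, the junctional plakoglobin, measured 159, 126 and 159 FPKM in cardiomyocytes and 148, 208 and 222 FPKM in non-cardiomyocytes and was not past the threshold.

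Mitochondrial energy genes were higher as complete lists. All 22 genes of fatty acid oxidation, all 21 of the citrate cycle and all 68 nuclear genes of the respiratory chain and ATP synthase were higher, with medians of 3.45, 3.11 and 2.99. Cpt1b, the muscle enzyme that admits fatty acids to mitochondria, measured 622, 446 and 576 FPKM in cardiomyocytes and 22.9, 15.8 and 13.2 FPKM in non-cardiomyocytes, without overlap. Fabp3, the fatty acid carrier of the muscle cytosol, measured 1321, 1290 and 1585 FPKM in cardiomyocytes and 120.4, 87.7 and 97.8 FPKM in non-cardiomyocytes. Atp5b, the catalytic subunit of ATP synthase, measured 7819, 9194 and 7729 FPKM in cardiomyocytes and 962, 892 and 778 FPKM in non-cardiomyocytes. The ranges of the respiratory chain list were narrow, from 2.04 for Atp5l to 4.11 for Cox6a2, the muscle form of a cytochrome oxidase subunit. The 37 genes encoded by mitochondrial DNA were at 0 in all 6 libraries of the table and were not analysed. All 4 genes of ketone use were higher (median 3.84), among them Oxct1, which activates ketone bodies, at 3.75 ± 0.24 (SE). Of 17 glycolytic genes 15 were higher with a median of 2.20 (12, and 1 lower, with the same sum in every library), led by Eno3, the muscle enolase, at 2346, 2402 and 2301 FPKM in cardiomyocytes and 192, 179 and 104 FPKM in non-cardiomyocytes. Gapdh was listed at only 12.3, 16.4 and 12 FPKM in cardiomyocytes, and its value is uncertain. An effect of its many near-identical copies in the genome was not tested. In the creatine kinase system Ckmt2, the mitochondrial form, differed by 4.54 ± 0.26 (SE) and Ckm, the muscle form, by 3.92 ± 0.22 (SE), whereas Ckb, the brain form, measured 33.1, 28.1 and 29 FPKM in cardiomyocytes and 32.6, 31.9 and 30.1 FPKM in non-cardiomyocytes and was not past the threshold.

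**Figure D4:**
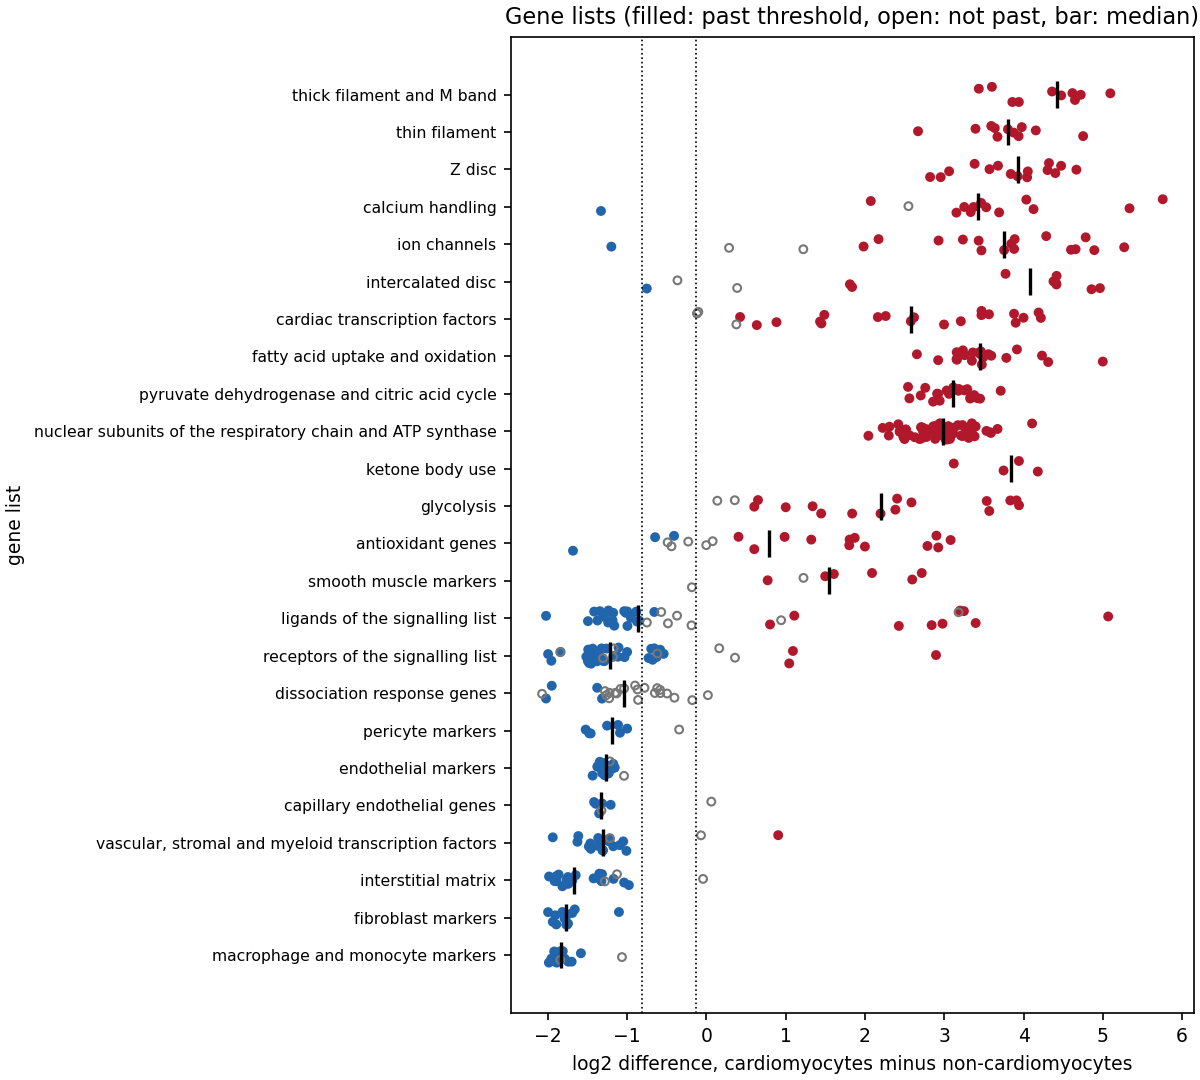
Log2 difference (cardiomyocytes minus non-cardiomyocytes) of every member of 24 gene lists, 1 point per gene, filled where the gene passed the threshold, with a bar at the median of each list. The medians of the heart muscle and mitochondrial lists lie between about 2 and 5. Those of the endothelial, fibroblast and macrophage lists lie between about -2 and -1, and that of the smooth muscle list lies above 0. Single genes of several lists lie outside these ranges. The dotted lines are the medians of all genes tested on the deposited scale (-0.13) and with the same sum in every library (-0.81).

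Pairs of related genes differed to unequal degrees between the fractions. In 25 pairs of a muscle form and a form of other tissues, the muscle form was higher in 22, the other form was lower in 9, and both held in 6. In 9 pairs both forms were higher, and in 7 the other form was not past the threshold. The share of the muscle form was computed as its FPKM over that of the pair. For Cpt1b over Cpt1a, the liver form, the share was 95.5%, 95.8% and 94.4% in cardiomyocytes and 38.7%, 32.4% and 23.8% in non-cardiomyocytes. For Actc1, cardiac actin, over Actb, the actin of the general cytoskeleton, it was 94.9%, 94.4% and 95.9% against 44.9%, 42.1% and 35.0%. For Des over Vim, the intermediate filament of mesenchymal cells, it was 63.0%, 67.1% and 62.1% against 6.14%, 5.39% and 3.87%. In these pairs the share among non-cardiomyocytes was highest in library 0 and lowest in library 2, as were the sarcomeric genes. Fabp3 over Fabp4, the carrier of endothelial cells and fat, went from 2.55%, 2.04% and 1.95% in non-cardiomyocytes to 42.8%, 42.4% and 44.3% in cardiomyocytes. In several other pairs the muscle form made up most of the pair in both fractions. Its share was 99.7% in cardiomyocytes and 95.5% in non-cardiomyocytes for Myl3 over Myl6, and 97.4% and 90.2% for Slc25a4 over Slc25a5. Myl3 in non-cardiomyocytes was at 6.93% of its level in cardiomyocytes, and which cells this RNA came from was not tested. An effect of near-identical gene copies on the values of Myl6 and Slc25a5 was not tested either. The exception in direction was the pair of laminin chains, in which Lama2 at -1.36 and Lama4 at -1.41 were both lower in cardiomyocytes.

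**Figure D5:**
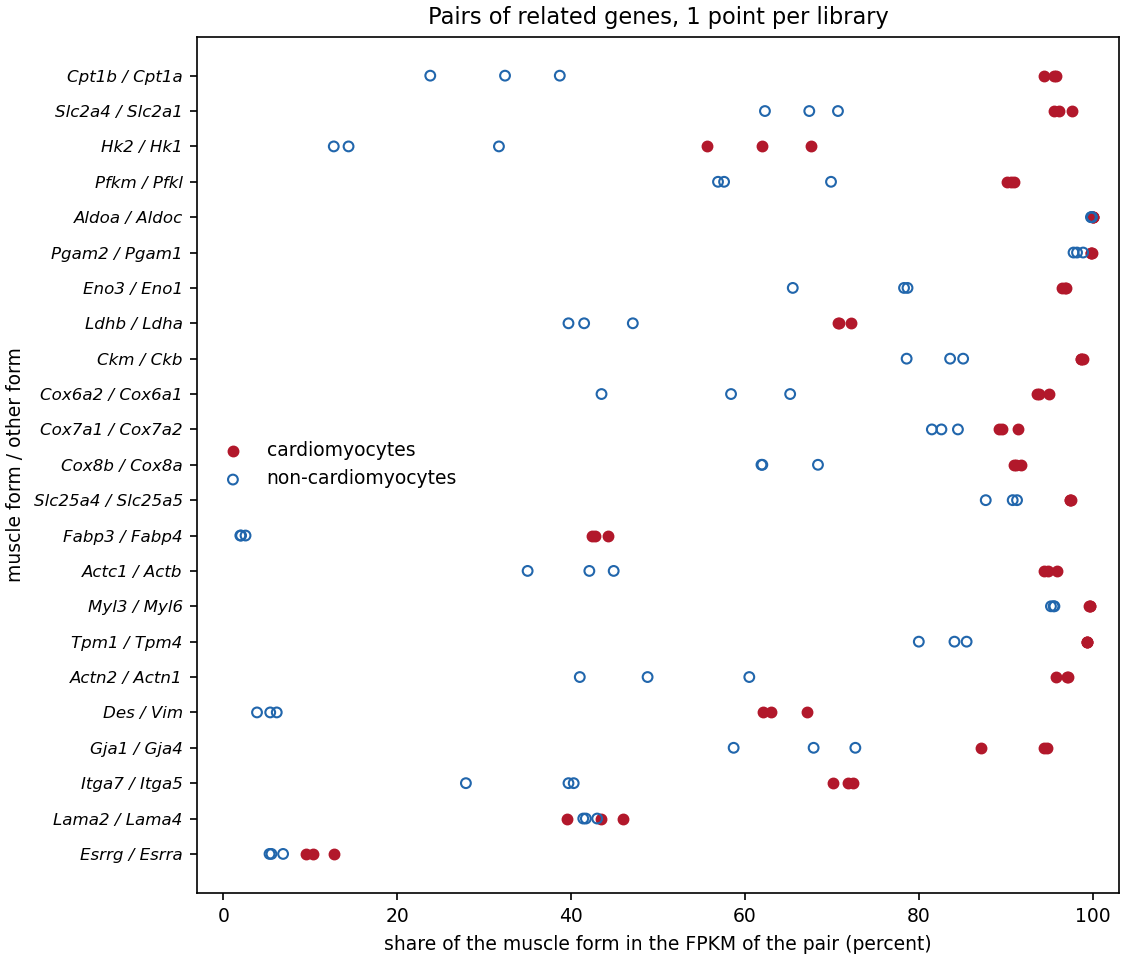
Share of the muscle form in the summed FPKM of each of 23 pairs of related genes (percent, 1 point per library, filled for cardiomyocytes and open for non-cardiomyocytes). The shares of Cpt1b, Actc1, Des and Fabp3 lie far apart between the fractions (95.2% against 31.8% for Cpt1b and 64.1% against 5.17% for Des), whereas those of Lama2 nearly coincide (42.9% against 42.1%).

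Of 23 transcription factors and cofactors of heart muscle 20 were higher (median 2.58), and with the same sum in every library 16 were higher and 2, Mef2c and Tbx20, lower. Nkx2-5, the homeobox factor of the cardiac lineage, measured 54.6, 47.8 and 52.8 FPKM in cardiomyocytes and 5.3, 4.04 and 3.65 FPKM in non-cardiomyocytes. Ppargc1a, the coactivator of mitochondrial biogenesis, differed by 4.19 ± 0.26 (SE), Smyd1, a methyltransferase of striated muscle, by 4.22 ± 0.26 (SE), and Esrra, an estrogen-related receptor that drives energy genes, by 2.62 ± 0.074 (SE). Gata4, shared by the heart and its lining, was higher by 1.49 ± 0.18 (SE) with 70.1, 53.8 and 72.6 FPKM in cardiomyocytes and 27, 24.5 and 18.7 FPKM in non-cardiomyocytes. Tbx20 measured 29.1, 22.2 and 21.9 FPKM in cardiomyocytes and 40.9, 24.1 and 17.8 FPKM in non-cardiomyocytes and Mef2c 19.6, 14.6 and 21.9 FPKM in cardiomyocytes and 22.8, 15.2 and 23.2 FPKM in non-cardiomyocytes, and neither was past the threshold on the deposited scale. In the list of 24 factors of other cells 21 were lower (median -1.31; 13 without both libraries numbered 0, with a median of -1.24), among them Klf2, which responds to flow in endothelium, at -1.31 ± 0.22 (SE), Tcf21 of fibroblasts at -1.94 ± 0.12 (SE) and Spi1 (PU.1) of myeloid cells at -1.48 ± 0.20 (SE). Prrx1, a factor of connective tissue, was the 1 member of that list that was higher, at 19.7, 19.5 and 21.1 FPKM in cardiomyocytes and 11.4, 11.4 and 9.29 FPKM in non-cardiomyocytes (0.91 ± 0.12 (SE)), a call not kept with the same sum in every library.

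Endothelial genes were the largest cell type list on the other side. Of 19 endothelial markers 17 were lower in cardiomyocytes (median -1.27), and their level there was 41.3% of that in non-cardiomyocytes at the median gene. With the same sum in every library all 19 were lower with a median of -2.02, so this percentage holds on the deposited scale only. Egfl7, a secreted protein of vessels and the most abundant of them, measured 375, 389 and 407 FPKM in cardiomyocytes and 964, 909 and 979.9 FPKM in non-cardiomyocytes. Kdr, the main receptor for VEGF, measured 69.8, 74.2 and 81.9 FPKM in cardiomyocytes and 194, 186 and 207 FPKM in non-cardiomyocytes. Cdh5, the cadherin of endothelial junctions, measured 110.0, 118 and 153 FPKM in cardiomyocytes and 292, 293 and 368 FPKM in non-cardiomyocytes. None of the 3 overlapped between fractions. Among 7 genes of capillary endothelium, Fabp4 measured 1764, 1754 and 1991 FPKM in cardiomyocytes and 4604, 4214 and 4915 FPKM in non-cardiomyocytes and differed by -1.32 ± 0.19 (SE), and Aqp1, the water channel, by -1.40 ± 0.27 (SE). Cd36, a fatty acid transporter that both endothelium and cardiomyocytes use, stood out of that list at 776, 752 and 894 FPKM in cardiomyocytes and 820.3, 749.7 and 748 FPKM in non-cardiomyocytes, not past the threshold on the deposited scale and lower with the same sum in every library. All 8 members of the lymphatic and endocardial list were lower (median -1.44), with Ccl21a, the chemokine of lymphatic vessels, at -2.01 ± 0.084 (SE).

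Fibroblast and matrix genes were lower as well. All 13 fibroblast markers were lower (median -1.77), and the level in cardiomyocytes was 29.6% of that in non-cardiomyocytes at the median gene. This percentage depends on the scale, since the median was -2.51 with the same sum in every library. Dcn, the small proteoglycan decorin, measured 562, 479.6 and 381 FPKM in cardiomyocytes and 1896, 2082 and 1334 FPKM in non-cardiomyocytes, and Pdgfra, the receptor that marks resident fibroblasts, measured 9.54, 11.1 and 11.6 FPKM in cardiomyocytes and 36.5, 51.6 and 42.5 FPKM in non-cardiomyocytes. Of 24 genes of the interstitial matrix 21 were lower (median -1.67), and of 15 genes of basement membranes 12 (median -1.29). Col6a3, a chain of type VI collagen, was at -1.99 ± 0.14 (SE) and Nid1, the linker of laminin and collagen, at -1.86 ± 0.11 (SE). Col4a5 was the 1 gene of both lists that was higher, at 18.9, 14.8 and 17.3 FPKM in cardiomyocytes and 10.1, 8.55 and 8.85 FPKM in non-cardiomyocytes (0.88 ± 0.13 (SE)), and this call was not kept with the same sum in every library either. Timp3, an inhibitor of matrix proteases, was highest in the libraries numbered 1 of both fractions, at 134, 294 and 134 FPKM in cardiomyocytes and 356, 707 and 301 FPKM in non-cardiomyocytes, and was not past the threshold.

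Macrophage genes were lower in cardiomyocytes by a similar depth. Of 17 members 15 were lower (median -1.84), with levels in cardiomyocytes at 27.6% of those in non-cardiomyocytes. With the same sum in every library all 17 were lower with a median of -2.59, so the percentage depends on the scale. C1qa, a chain of complement component C1q, measured 99.7, 60.7 and 72.9 FPKM in cardiomyocytes and 275, 238 and 294 FPKM in non-cardiomyocytes, and Mrc1, the mannose receptor of resident macrophages, measured 17.4, 12.3 and 14.6 FPKM in cardiomyocytes and 62.8, 56.5 and 55.7 FPKM in non-cardiomyocytes. Of 7 genes of antigen presentation by MHC class II 6 were lower (median -1.89). Without both libraries numbered 0 the median was -2.07 and none of them was past the threshold. Cd74, the invariant chain, measured 221, 98.1 and 237 FPKM in cardiomyocytes and 611, 478 and 965 FPKM in non-cardiomyocytes, with its lowest values in the libraries numbered 1. Of 7 lymphocyte genes 1 was lower, Nkg7 at -2.13 ± 0.59 (SE), and Cd3e, Cd3d and Cd8a had means below 1 FPKM. With the same sum in every library 3 of the 7 were lower, and without both libraries numbered 0 none was. Of 3 platelet genes 1 was lower, Pf4, a chemokine of platelets and their precursors, at -1.76 ± 0.23 (SE). Which cells its RNA came from was not tested. Ppbp and Itga2b of that list were not past the threshold. Of the others of that list, which averaged below 1 FPKM, Gp1ba, a receptor subunit of the platelet surface, was higher by 1.19 ± 0.34 (SE), a call not kept with the same sum in every library, without both libraries numbered 0 or with 1 library left out (except cardiomyocyte library 2), and Gp9 was not past the threshold.

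By the rule of size, which asked for an average of 10 FPKM or more on the higher side, the 12 protein-coding members with the greatest fall ranged from -2.63 to -2.19, in contrast to 5.06 to 5.76 among the 12 with the greatest rise. Among the falling genes were Hba-a2, Ccl4, Il1b, Ptpn6, Alox5ap, Col6a6, Ccl3, Cxcl14, Lst1, Ly86 and Ccl7. Alox5ap, which activates leukotriene synthesis, measured 29.7, 39.3 and 90.1 FPKM in cardiomyocytes and 279, 241 and 231 FPKM in non-cardiomyocytes. Il1b, the inflammatory cytokine, measured 19.7, 4.65 and 5.7 FPKM in cardiomyocytes and 86.8, 38.1 and 29.2 FPKM in non-cardiomyocytes and was high in both libraries numbered 0. Hba-a2, an alpha globin whose reads can be split with its near-identical copy Hba-a1, measured 127, 31.9 and 26.2 FPKM in cardiomyocytes and 823, 177 and 174 FPKM in non-cardiomyocytes. Col6a6, a collagen VI chain, had the narrowest spread of the 12, at 2.66, 2.31 and 2.44 FPKM in cardiomyocytes and 12.4, 14.3 and 11.4 FPKM in non-cardiomyocytes and -2.31 ± 0.14 (SE). Among the rising genes were Ryr2, Yipf7, Hrc, Mylk4, Ogdhl, Corin, Myadml2, Ttn, Nppb and Hhatl. Corin, the protease that activates natriuretic peptides, measured 92, 77.8 and 84.7 FPKM in cardiomyocytes and 4.72, 2.03 and 0.962 FPKM in non-cardiomyocytes, and Nppb, the B-type natriuretic peptide, measured 316, 416 and 177 FPKM in cardiomyocytes and 25.7, 7.14 and 3.2 FPKM in non-cardiomyocytes. Ogdhl, a relative of a citrate cycle dehydrogenase, measured 69.2, 69 and 72 FPKM in cardiomyocytes and 2.09, 1.82 and 1.28 FPKM in non-cardiomyocytes. Mylk4, a kinase of the myosin light chain family, measured 33.7, 46.4 and 56.4 FPKM in cardiomyocytes and 1.33, 1.2 and 0.702 FPKM in non-cardiomyocytes.

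Genes of pericytes and of smooth muscle, which together form the mural cells, went in different directions. Of 8 pericyte genes 7 were lower (median -1.19), with Rgs5, a regulator of G protein signals, at 247, 422 and 303 FPKM in cardiomyocytes and 611, 894 and 590.2 FPKM in non-cardiomyocytes and Pdgfrb at -1.48 ± 0.18 (SE). Abcc9, a subunit of potassium channels in pericytes and cardiomyocytes, was not past the threshold, at 74.3, 91 and 98.8 FPKM in cardiomyocytes and 95.3, 136 and 106 FPKM in non-cardiomyocytes. Of 8 smooth muscle genes 6 were higher in cardiomyocytes and none was lower (median 1.55). With the same sum in every library 5 were higher and 1, Mylk, a kinase of the myosin light chain, was lower (median 0.81). Acta2, smooth muscle actin, measured 271, 213 and 127 FPKM in cardiomyocytes and 60.4, 47.3 and 33.2 FPKM in non-cardiomyocytes. Myh11, the smooth muscle myosin heavy chain, measured 34.7, 50.2 and 29.6 FPKM in cardiomyocytes and 15.2, 14.7 and 10.1 FPKM in non-cardiomyocytes, and Tagln, an actin-binding protein, measured 107, 117 and 70.5 FPKM in cardiomyocytes and 42.9, 33.2 and 21.7 FPKM in non-cardiomyocytes. The smooth muscle genes were thus higher where the pericyte genes were lower, and Synpo2 (2.72 ± 0.13 (SE)) is also a gene of striated muscle. Acta2 and Tagln are transcribed in some cardiomyocytes as well, and the share of smooth muscle cells in either fraction was not tested. Schwann cell genes were at low levels with none of 6 past the threshold (median -0.72, and 5 lower with the same sum in every library), and of 6 mesothelial and epicardial genes Wt1 (-1.14 ± 0.33 (SE)) and Tbx18 (-1.05 ± 0.16 (SE)) were lower.

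Genes of signals between the compartments were more often lower than higher in cardiomyocytes, among ligands and receptors alike. Of 36 ligand genes 9 were higher and 20 lower in cardiomyocytes (median -0.86), and of 40 receptor genes 3 were higher and 30 lower (median -1.22). With the same sum in every library the counts were 7 and 25 for ligands and 1 and 35 for receptors. Without both libraries numbered 0 they were 10 and 13 for ligands (median -0.83) and 2 and 21 for receptors (median -1.14). Of all 14939 members 30.3% were higher and 28.2% lower on the deposited scale. The counts of all members were 2434 and 8248 with the same sum and 3442 and 2479 without both libraries numbered 0. Vegfa, the vascular growth factor, measured 239, 315 and 257 FPKM in cardiomyocytes and 45, 36.7 and 23.8 FPKM in non-cardiomyocytes, and Vegfb, its relative, measured 281, 325 and 269.6 FPKM in cardiomyocytes and 31.4, 32 and 28.4 FPKM in non-cardiomyocytes. Their receptors Kdr and Flt1 were lower, at -1.38 ± 0.095 (SE) and -1.35 ± 0.33 (SE). Angpt1, the ligand of the vessel receptor Tek, measured 31.1, 14.1 and 23.5 FPKM in cardiomyocytes and 6.1, 3.65 and 2.8 FPKM in non-cardiomyocytes, while Tek was at -1.44 ± 0.16 (SE). Fgf1 and Fgf16 of the fibroblast growth factor family were higher by 3.20 and 2.84, whereas the receptor Fgfr1 was at -1.11 ± 0.15 (SE). Fgf13 of the same family was higher by 3.40 and is not set against this receptor. Npr1, the receptor of the natriuretic peptides, was lower at 32.8, 31.6 and 27.8 FPKM in cardiomyocytes and 90.8, 69.4 and 72 FPKM in non-cardiomyocytes. Pdgfb, Tgfb1 and Cxcl12, made by vascular and stromal cells, were at -1.28, -1.19 and -1.34. Erbb4, the neuregulin receptor of cardiomyocytes, was the receptor of that list with the greatest rise, at 2.47, 2.1 and 2.71 FPKM in cardiomyocytes and 0.246, 0.107 and 0.437 FPKM in non-cardiomyocytes, and Bmpr1a and Erbb3 were higher as well (1.09 and 1.04), calls not kept with the same sum in every library. Among 9 receptors of autonomic and hormone signals 6 were higher and 2 lower (6 and 3 with the same sum in every library), led by the muscarinic receptor Chrm2 (4.76 ± 0.45 (SE)). Adrb1, the main beta adrenergic receptor of cardiomyocytes, was higher at 10.4, 8.9 and 9.21 FPKM in cardiomyocytes and 1.18, 2.23 and 1.86 FPKM in non-cardiomyocytes, and the adenosine receptor Adora2a was lower at 5.93, 6.51 and 7.3 FPKM in cardiomyocytes and 15.8, 16.4 and 19.5 FPKM in non-cardiomyocytes.

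Antioxidant and cell death genes split within their lists. Of 20 antioxidant genes 12 were higher and 3 lower (median 0.79), and with the same sum in every library 9 and 6 (median 0.05). The mitochondrial enzymes Sod2 and Prdx3 were at 3.08 ± 0.15 (SE) and 2.92 ± 0.12 (SE), and Hmox1, heme oxygenase, was lower at 25.2, 18.9 and 14 FPKM in cardiomyocytes and 71.2, 76 and 41.3 FPKM in non-cardiomyocytes. Of 10 anti-apoptotic genes 2 were higher and 5 lower, and of 15 pro-apoptotic genes 2 were higher and 9 lower, with medians of -0.80 and -0.65. With the same sum in every library these counts were 1 and 8 for the former and 1 and 13 for the latter. Of all 14939 members 30.3% were higher and 28.2% lower on the deposited scale, and 2434 were higher and 8248 lower with the same sum. Nol3, a repressor of cell death in muscle, measured 22, 22.7 and 21.3 FPKM in cardiomyocytes and 3.07, 2.32 and 2.23 FPKM in non-cardiomyocytes (3.08 ± 0.15 (SE)), and Bnip3, a mitochondrial death and mitophagy protein, measured 51, 49.7 and 52.8 FPKM in cardiomyocytes and 14.2, 24.7 and 7.51 FPKM in non-cardiomyocytes. Bcl2 was lower at -1.30 ± 0.20 (SE) and Casp8, an initiator caspase, at -1.34 ± 0.19 (SE). Without both libraries numbered 0 the pro-apoptotic genes had a median of -0.66, with 0 higher and 3 lower.

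Genes known to respond to tissue digestion were measured in both fractions. Of 25 immediate early and heat shock genes 4 were lower in cardiomyocytes (Ccl2, Cxcl1, Klf6 and Myc) and none was higher, with a median of -1.04. With the same sum in every library 19 of them were lower. Of all 14939 members 28.2% were lower on the deposited scale, and 8248 were lower with the same sum. Fos measured 751, 703 and 298 FPKM in cardiomyocytes and 1197, 1153 and 579.6 FPKM in non-cardiomyocytes, and Egr1 measured 359, 275 and 127 FPKM in cardiomyocytes and 827, 570.1 and 339 FPKM in non-cardiomyocytes, each lowest in the libraries numbered 2. The difference between libraries was thus of the size of that between the fractions for these genes. Of 14 cell cycle genes 3 were lower (Pcna, Mcm3 and Tyms) and Cenpf was higher, at 7.79, 16.1 and 14.1 FPKM in cardiomyocytes and 1.6, 1.65 and 4.79 FPKM in non-cardiomyocytes, a call not kept without both libraries numbered 0, where it differed by 2.38 on the log2 scale. The lower calls of this list then numbered 1, and 5 with the same sum in every library.

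Among the 572 lncRNA members, 149 (26.0%) were higher and 125 (21.9%) lower. The shares were 30.3% and 28.2% of all members, and 25.4% and 23.3% of all genes tested. Of 9 lncRNAs known in the heart 3 were higher and 3 lower, with 5 lower when every library had the same sum and 1 lower without both libraries numbered 0. Mhrt, listed as D830015G02RIK on chromosome 14 (54968678 to 54974349, plus strand of GRCm38), measured 98, 129 and 89.3 FPKM in cardiomyocytes and 8.43, 4.17 and 3.81 FPKM in non-cardiomyocytes. It lies opposite Myh7, and because the use of strand is not stated, its reads cannot be told apart from those of that gene. BC037032, on chromosome 15 (4020114 to 4027405, minus strand) and opposite Oxct1, measured 4.28, 2.97 and 5.28 FPKM in cardiomyocytes and 0.623, 0.706 and 0.634 FPKM in non-cardiomyocytes, with the same limit. Meg3, an imprinted lncRNA, was lower at 28.5, 25.5 and 19.5 FPKM in cardiomyocytes and 98.7, 97.9 and 78.1 FPKM in non-cardiomyocytes (-1.91 ± 0.17 (SE)), H19 at -1.22 ± 0.25 (SE) and Gas5 at -0.59 ± 0.16 (SE). Malat1, a nuclear lncRNA of most cells, measured 287, 377 and 247 FPKM in cardiomyocytes and 313, 355 and 226 FPKM in non-cardiomyocytes, not past the threshold on the deposited scale and lower with the same sum in every library. By the rule of size, the lncRNAs with the greatest rise included Gm14133, D830015G02RIK, RP24-66N1.1 and BB218582, and those with the greatest fall A430104N18Rik, Gm12963, Gm15418, Gm15445 and Gm11816. For each lncRNA opposite a protein-coding gene the limit on strand holds, and Gm15445 overlaps Arl8a on the same strand, so that their reads cannot be told apart there even by strand. Gm15418 lies opposite Col4a1, which was at -1.29 on the log2 scale, and measured 0.51, 0.639 and 0.257 FPKM in cardiomyocytes and 2.52, 1.96 and 1.9 FPKM in non-cardiomyocytes. Gm14133 on chromosome 2 overlaps no protein-coding gene in the annotation, and measured 21.4, 34.3 and 26.2 FPKM in cardiomyocytes and 0.336, 2.86 and 1.23 FPKM in non-cardiomyocytes.

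Some of the highest FPKM of the table belonged to very short annotated genes. Gm11966, a processed pseudogene of 87 bases on chromosome 11 (5818497 to 5818583, minus strand), measured 46518, 51967 and 42495 FPKM in cardiomyocytes and 8485, 7958 and 6790 FPKM in non-cardiomyocytes. Its sequence is shown because it was the top entry of the cardiomyocyte fraction and equals a stretch of the coding sequence of Atp5j, a subunit of ATP synthase, over all 87 bases (100% identity):
Gm11966, chr11:5818497-5818583, minus strand: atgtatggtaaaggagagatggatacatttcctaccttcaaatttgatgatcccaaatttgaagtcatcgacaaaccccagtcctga
Atp5j itself, on chromosome 16, measured 3224, 2802 and 2860 FPKM in cardiomyocytes and 705, 514 and 465 FPKM in non-cardiomyocytes. Reads of the 2 genes cannot be told apart over this stretch. The entries listed as mmu-mir-703, AL669855.1 and AC151602.1, of 108, 84 and 109 bases, lie on the same strand inside Eef1a1, Actg1 and Ftl1, which are abundant messenger RNAs, and equal them over their whole length. The first measured 13971, 12336 and 10509 FPKM in cardiomyocytes and 30264, 25479 and 20946 FPKM in non-cardiomyocytes, and its value is therefore no measure of a microRNA. Among protein-coding genes the highest levels of non-cardiomyocytes were those of Fabp4, Gsn, Myl2, Tmsb4x and Apoe. Gsn, which severs actin filaments, measured 1209, 1017 and 811 FPKM in cardiomyocytes and 4226, 4404 and 2827 FPKM in non-cardiomyocytes, and Apoe, the lipoprotein component made by macrophages, measured 826, 568 and 554 FPKM in cardiomyocytes and 2144, 2117 and 1973 FPKM in non-cardiomyocytes. In cardiomyocytes Mb, the oxygen store myoglobin, followed Myl2 at 17630, 19933 and 17860 FPKM in cardiomyocytes and 1682, 1531 and 1190 FPKM in non-cardiomyocytes. Mir5105, also among the highest entries of both fractions, was not matched to the annotation. Apart from Atp2a2 and Myh6, all genes listed at 0 in one fraction and at 20 FPKM or more in each library of the other were small RNAs (Mir704, AC132367.1, U6, snoU105B, AC134560.1, Mir1954 and mmu-mir-378a). Of the members, 769 had no transcript of 200 bases or more. Small RNA genes made up 714 members, of which 310 were listed at 0 in a whole fraction, 9 were higher and 21 lower. Pseudogenes made up 1029 members, of which 403 were higher and 134 lower, against 3904 and 3886 of the 12377 protein-coding members.

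The contrast of the fractions at 8 weeks was set against that at 18 months in 1 fit of all 12 libraries. Of 20038 genes tested, 6 (0.0299%) differed between the ages in limma with Benjamini-Hochberg adjustment, 4 of them members, and 368 had an unadjusted p below 0.05 (212 members). All 6 were small RNAs or an unmatched gene listed at 0 in all libraries of at least 1 group. No protein-coding member passed that test, with all libraries or with any 1 of the 12 left out, and nothing described here is called particular to 8 weeks.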

How the data were processed

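Cardiomyocyte and non-cardiomyocyte fractions of mouse hearts were measured as RNA-seq of polyadenylated RNA. The deposited table holds FPKM for 38282 genes in 12 libraries, and the authors made these FPKM values with TopHat2 2.0.9 and Cufflinks on GRCm38, per the labels and methods. The annotation and the use of strand are not given in the sources used here. Column names were matched to groups only, since their numbers 0 to 2 differ from the replicate numbers of the labels.

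FPKM were not rescaled. The 19715 genes that averaged 0.1 FPKM or more across the 6 young libraries were fitted in limma 3.58.1 (R 4.3.3) on log2(FPKM + 0.1) with a trended prior and no covariate. P-values were adjusted by Benjamini-Hochberg over all genes fitted, with a threshold of 0.05. Differences of low genes are understated on this scale. All 14939 members passed the filter by their definition. An interaction fit on all 12 libraries (20038 genes) compared the ages. On simulated data of these 6 libraries, the test made 0 calls without a change, and it recovered 27.5% of 200 genes changed by 1 on the log2 scale and 65% of those changed by 2, with 2 false among 57 calls and 9 among 139. In the simulation only 200 of 19715 genes changed, whereas 48.7% of genes tested were called in the data. The adjusted threshold therefore differs, and these figures do not give the power or the error of the comparison described here.

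Read depth is unknown; relative depth was derived from the steps of low values. Gene types and positions came from GENCODE M21 (36424 of 38282 genes matched by identifier), and promoters from RefSeq (GRCm38.p6). Short genes were matched to transcripts with BLAST.

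The members and the gene lists were chosen with earlier results of these data known. Named by rule were the 12 protein-coding genes and 5 lncRNAs per direction with the largest differences among members past the threshold without overlap, the 10 highest genes of each fraction, and genes at 0 in one fraction with 20 FPKM or more in each library of the other. From each list the most abundant genes and those going against the list were named. Other genes of the lists, those that follow a library number and the promoters shown were picked after their values were seen. Alternatives changed the pseudocount, the filter, the scaling, the prior, the libraries fitted and the replicate block. Some genes that meet these rules are not reported here.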

Additional observations from a re-analysis of the deposited data

Results flagged for a closer look

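In the interaction fit the difference of the fractions at 8 weeks minus that at 18 months passed the threshold for 6 genes in limma with Benjamini-Hochberg adjustment. The values on the log2 scale were -7.21 and -7.42 for a pair of U6 genes, 7.07 for SNORA71, -9.65 for Mir704, -7.91 for Mir1938 and 5.25 for Gm14422. Each of them was listed at 0 in all 3 libraries of at least 1 of the 4 groups, so the sizes rest on the pseudocount and are no bounds. The number of genes called went from 5 to 16 when single libraries were left out, and was 3 with a pseudocount of 1.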

How the results depend on the processing

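Of the choices tried, the scale moved the split of members between higher and lower most, and leaving out both libraries numbered 0 moved their total most. With the same sum in every library 2434 members were higher and 8248 lower (10682 in all), against 4524 and 4216 (8740) on the deposited scale. Leaving out both libraries numbered 0, an alternative chosen after seeing the data, gave 3442 higher and 2479 lower (5921). When single libraries were left out, the members called numbered 7253 to 7718 in all, 4019 to 4168 higher and 3209 to 3660 lower. The replicate block by column number gave 9579 calls against 8740, and newly past the threshold with it were Sln and Nppa among the higher genes given with values and Egr1, Fkbp5, Fos, Hbb-bs, Timp3 and mmu-mir-703 among the lower. It was not taken as a pairing, because the deviations of libraries with the same number correlated at only 0.121, 0.063 and 0.070, although each library correlated best with its own number. The interaction had 3 calls with a pseudocount of 1, 5 with the replicate block, and 5 to 16 when single libraries were left out, the most without non-cardiomyocyte library 0 of the aged mice.

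Of the 137 genes given with values, 9 changed sign in at least 1 alternative, and the cause was not tested. With the same sum in every library Cd36 went to -0.69, Malat1 to -0.72 and Gapdh to -0.091, and with quantile normalization Cd36 went to -1.05 and Malat1 to -0.83. When single libraries were left out, Bmp10 ranged from -2.63 to 3.58, Cfd from -1.68 to 3.73, Upk3b from -1.70 to 0.57, Zbtb16 from -0.28 to 2.28, Tbx20 from -0.37 to 0.22, Mef2c from -0.32 to 0.047, Malat1 from -0.16 to 0.17 and Cd36 from -0.015 to 0.11. Without both libraries numbered 0, Tbx20 was 0.090 and 25 of the 137 genes were no longer past the threshold, namely Myl2, Myh11, Bnip3, Cenpf, Erbb3, Gapdh, Gm11966 and Gp1ba among those higher and Alox5ap, Aqp1, Casp8, Cd74, Col4a1, Fabp4, Fkbp1b, Flt1, Gas5, Gm15418, H19, Kcna5, Klf2, Nkg7, Rgs5, Tjp1 and Wt1 among those lower. Their differences in this fit of 2 against 2 libraries were 78.3% to 117% of those with all libraries, and at least as large in 13. Depth in reads is unknown, so no limit of detection was given for genes at 0.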
